A study of Mus musculus with 10 samples.

Results

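The promoters described here were methylated at an intermediate level in mouse metaphase II (MII) oocytes, the mature eggs, of every group of the study. They comprised 831 windows, out of 40537 nuclear promoter windows listed in all 3 deposited tables. Each window spans 2000 bp, centred on an annotated transcript start. The level of a window is the share of its CpG calls that were methylated, in percent. They were chosen by these levels: a window was taken when its level lay from 20 to under 80 in each table, with at least 20 calls in each and fewer than 80 covered CpG positions. Those depth and position limits left 19099 windows, called eligible below, so 4.35% of them were intermediate in all 3 groups. Among eligible windows, 13611 were under 20% in all 3 groups (low), 2241 were at 80% or over in all 3 (high) and 2416 fell in different classes (mixed). Many starts lie close together, so that the 831 windows form 632 separate stretches, of which 134 hold 2 or more.

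The study compared oocytes of wild-type mice aged 2 months (young WT, 4 libraries), wild-type mice aged 11 months (old WT, 3 libraries) and Tet2 knockout mice aged 2 months (Tet2KO, 3 libraries), all of strain C57BL6/129. The kind of Tet2 allele is not given in the sources used here. Libraries were made by low-input bisulfite sequencing; a bisulfite call does not separate methylcytosine from hydroxymethylcytosine. The labels disagree on the input, naming 10 oocytes per sample in one place and a single oocyte in another. The authors pooled the libraries of a group into 1 table, so each window has 1 value per group, called a pool here, and no difference below has a replicate check or a test. The 95% intervals (Wilson for a level, Newcombe for a difference) cover counting error only.

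Mammalian oocytes gain DNA methylation while they grow, after it was erased in the germ line. The methyltransferase Dnmt3a and its cofactor Dnmt3l place most of it across transcribed regions, while many CpG-rich starts stay unmethylated, so that most regions of an oocyte genome are either nearly free of methylation or nearly full. Tet2, the gene knocked out here, encodes a dioxygenase that oxidises methylcytosine. Against that background an intermediate window can hold a mixture of methylated and unmethylated CpGs along its length, or the same CpGs in different states in different oocytes or alleles. Window sums do not separate these.

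Shared nuclear windows held 9254618 calls in young WT, 16753976 in old WT and 5443839 in Tet2KO. The median intermediate window held 63.0, 106.0 and 42.0 calls in the same order, against 87.0, 154.0 and 54.0 for all eligible windows. The median width of the Wilson interval of a level was 22.3, 17.7 and 27.4 percentage points. As a check of the label, 50 windows of maternally imprinted genes, whose control regions are methylated in oocytes, had a median level of 95.8% in young WT, 96.1% in old WT and 90.9% in Tet2KO. Of these 50, taken without the call and position limits, 32, 32 and 31 were at 80% or over in the same order.

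The sequences below show 2 loci where an intermediate window lay between a low and a high one, and 2 of the windows whose level was most even between pools. Each is the 250 bases before a RefSeq transcript start (build GRCm38.p6, the assembly that mm10 represents), 5′ to 3′ on the strand of the gene, with every CpG, the only place where a call can be made, in capitals. Ddr1 encodes a collagen receptor kinase and has several starts on the minus strand of chromosome 17. Mst1, a growth factor of liver related to hepatocyte growth factor, and Rnf123, a ubiquitin ligase, are transcribed away from each other on chromosome 9. Cyba encodes a subunit of the phagocyte NADPH oxidase, and Sp110 a nuclear body protein of the interferon response.
Ddr1, low window, chr17:35704140-35704389, minus strand, 5 CpGs: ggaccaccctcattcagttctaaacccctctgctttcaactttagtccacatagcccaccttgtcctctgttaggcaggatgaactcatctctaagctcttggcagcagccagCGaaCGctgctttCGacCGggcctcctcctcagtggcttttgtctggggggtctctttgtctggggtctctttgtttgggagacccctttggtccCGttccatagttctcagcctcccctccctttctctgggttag
Ddr1, intermediate window, chr17:35702045-35702294, minus strand, 9 CpGs: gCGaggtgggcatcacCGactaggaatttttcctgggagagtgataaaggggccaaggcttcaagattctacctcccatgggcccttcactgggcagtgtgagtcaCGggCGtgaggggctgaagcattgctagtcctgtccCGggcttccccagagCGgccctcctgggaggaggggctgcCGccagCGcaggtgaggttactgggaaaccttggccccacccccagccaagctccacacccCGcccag
Ddr1, high window, chr17:35700591-35700840, minus strand, 34 CpGs: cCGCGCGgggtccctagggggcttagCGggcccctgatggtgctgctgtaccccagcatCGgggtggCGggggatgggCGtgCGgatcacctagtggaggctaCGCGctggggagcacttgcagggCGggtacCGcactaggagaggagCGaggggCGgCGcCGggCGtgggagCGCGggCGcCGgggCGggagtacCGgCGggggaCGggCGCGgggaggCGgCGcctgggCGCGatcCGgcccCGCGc
Rnf123, low window, chr9:108079302-108079551, minus strand, 19 CpGs: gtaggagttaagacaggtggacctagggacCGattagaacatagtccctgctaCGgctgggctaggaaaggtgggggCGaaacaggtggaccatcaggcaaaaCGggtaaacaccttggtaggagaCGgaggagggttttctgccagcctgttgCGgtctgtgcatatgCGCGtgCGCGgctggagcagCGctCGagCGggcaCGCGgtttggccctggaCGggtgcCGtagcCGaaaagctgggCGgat
Mst1, intermediate window, chr9:108080186-108080435, plus strand, 4 CpGs: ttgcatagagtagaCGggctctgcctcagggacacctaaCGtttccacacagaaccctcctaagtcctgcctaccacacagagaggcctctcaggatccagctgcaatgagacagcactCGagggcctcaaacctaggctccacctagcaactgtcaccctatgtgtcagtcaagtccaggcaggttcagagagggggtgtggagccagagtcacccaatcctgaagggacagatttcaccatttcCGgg
Cyba, intermediate window, chr8:122432941-122433190, minus strand, 6 CpGs: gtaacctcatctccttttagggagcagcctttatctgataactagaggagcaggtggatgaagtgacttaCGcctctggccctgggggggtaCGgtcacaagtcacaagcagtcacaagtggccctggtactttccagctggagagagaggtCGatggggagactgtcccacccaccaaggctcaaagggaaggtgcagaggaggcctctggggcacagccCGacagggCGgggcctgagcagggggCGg
Sp110, intermediate window, chr1:85598811-85599060, minus strand, 3 CpGs: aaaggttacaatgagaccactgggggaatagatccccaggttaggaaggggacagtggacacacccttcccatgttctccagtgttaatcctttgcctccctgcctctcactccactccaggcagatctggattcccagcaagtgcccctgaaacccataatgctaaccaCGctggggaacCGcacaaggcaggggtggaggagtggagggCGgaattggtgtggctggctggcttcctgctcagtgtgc
At Ddr1 the densest of the sequences, with 34 CpGs, belongs to the high window and the sparsest, with 5, to the low one. At the other locus the order is opposite, with 19 CpGs before the low Rnf123 start and 4 before the intermediate Mst1 start.

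Ddr1 showed how an intermediate window can lie within a change of level along a gene. Its starts furthest upstream were unmethylated: the window at chr17:35703140-35705139 was at 0% of 63 calls in young WT (Wilson 95% interval 0 to 5.75), 3.31% of 121 calls in old WT and 0% of 24 calls in Tet2KO (0 to 13.8). The intermediate window, at chr17:35701045-35703044 and inside the gene, was at 43.4% of 129 calls, 37.3% of 126 and 76.9% of 78. The window of the next start, 1434 bp further along the gene, was at 88.3% of 111 calls, 87.2% of 133 and 85.7% of 21. Both neighbours thus had nearly the same level in all 3 pools, while the window between them was higher in Tet2KO than in either WT pool. It overlaps the high window, so part of their calls are the same.

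Nop56, a core protein of the box C/D small nucleolar ribonucleoproteins, and Mst1 had the same arrangement. At the start of Nop56 (chr2:130273455-130275454) the level was 8.30% in young WT, 7.11% in old WT and 3.20% in Tet2KO. The intermediate window, 1051 bp downstream and inside the gene, was at 27.4% of 113 calls, 39.5% of 210 and 20.9% of 67. At 1689 bp beyond it the level was 100%, 100% and 95.6%. Rnf123 was at 11.1%, 11.2% and 9.28%, and the intermediate window of Mst1 (chr9:108079436-108081435) at 49.4% of 89 calls, 35.7% of 98 and 28.1% of 32. Further along Mst1, another intermediate window was at 70.1%, 68.1% and 75.4%, and a window 2911 bp past the first was at 100%, 97.0% and 87.0%. In all 3 genes the low windows covered or preceded the 5′ end of the gene and the high ones lay within it. These loci were chosen after their values were seen, as the 3 stretches (5 of the 831 windows) with both a low and a high window centred within 3000 bp.

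**Figure D1:**
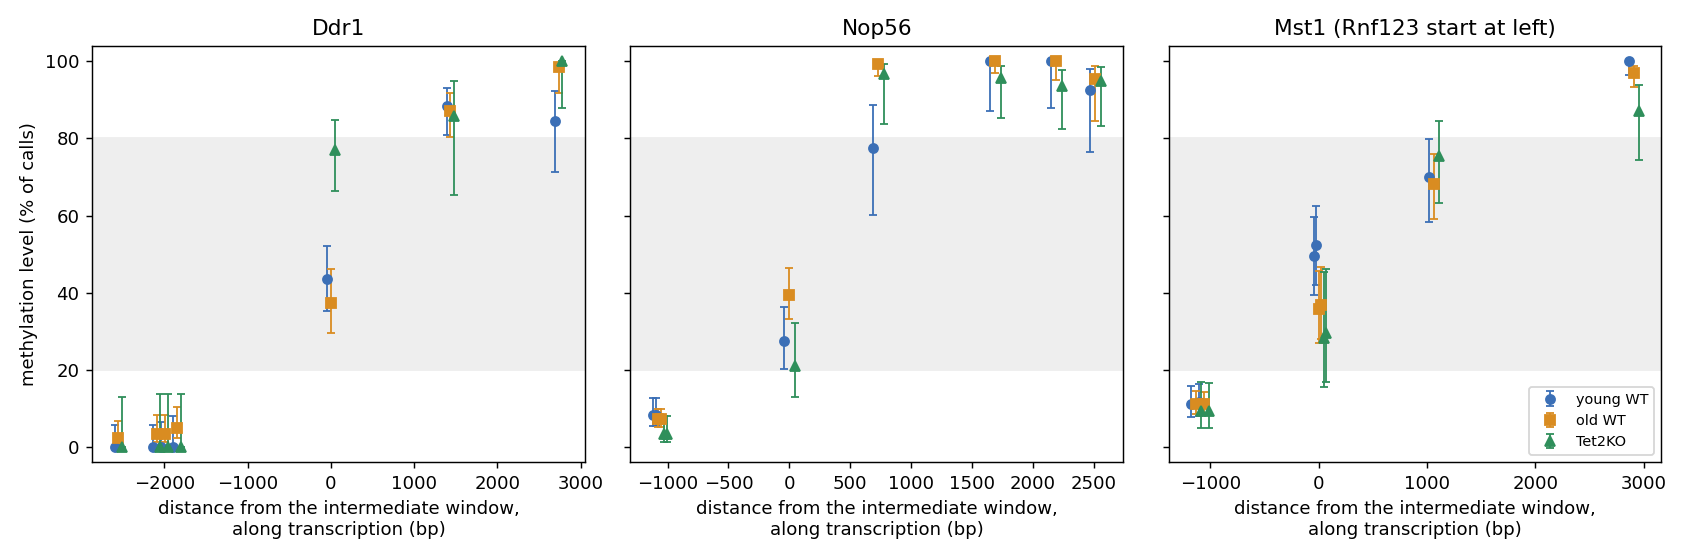
Methylation level (percent of calls, with Wilson 95% intervals) of windows around an intermediate window of Ddr1, Nop56 and Mst1, by distance along transcription in bp. Symbols, drawn slightly apart, mark the 3 pools, the grey band is 20 to 80%, and levels pass from at most 11.5% at the left to at least 84.4% at the right of each panel.

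The levels of intermediate windows spread over the whole permitted range. In young WT the lowest was 20.0%, the median 40.7% and the highest 79.4%. In old WT these were 20.0%, 46.4% and 79.5%, and in Tet2KO 20.0%, 45.5% and 79.5%. Most windows lay under 50%: 553, 481 and 485 of 831 in the order young WT, old WT and Tet2KO. Over all eligible windows the medians were 3.85%, 3.55% and 3.12%. Levels chose these windows, so they are a description.

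A window that was intermediate in a single pool was often low or high elsewhere. In young WT 2053 windows were intermediate (10.7% of those eligible), in old WT 1844 (9.65%) and in Tet2KO 1868 (9.78%). The 831 shared windows were 40.5%, 45.1% and 44.5% of these. Of the windows intermediate in young WT, 536 were low in both other pools and 160 high in both. For old WT these counts were 270 and 79, and for Tet2KO 337 and 87.

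Counting error limits the class of many windows. In 308 of the 831 windows the Wilson interval lay inside 20 to 80 in every pool. At least 50 calls in each pool were held by 284 windows and at least 100 by 72. Just inside the lower limit were Rnase1 (20.0% in old WT), Matn1 (20.0% in old WT) and Arap1 (20.0% in Tet2KO). Just outside it were Sytl1 (19.5% in Tet2KO), a further window of Gaa (19.5% in young WT) and Klhdc8b (19.5% in old WT). At the upper limit Gng13 (79.5% in Tet2KO), Pdzk1 (79.4% in young WT) and Cmtm2b (79.4% in Tet2KO) were inside. Gapdhs (80% in Tet2KO), Prkaca (80% in old WT) and a window of Ccdc42 (80.4% in young WT) were outside.

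The best covered of the intermediate windows lay inside Sfi1, which encodes a centrin-binding protein of the spindle pole. The window at chr11:3192408-3194407 was at 40.0% of 5022 calls in young WT, 47.4% of 9052 in old WT and 43% of 3459 in Tet2KO. All 7 intermediate windows in Sfi1 lay from 30.1% to 40.6% in young WT, 38.6% to 47.7% in old WT and 34.7% to 43.5% in Tet2KO. Several of the 7 overlap and share calls, some with identical counts, so they are not separate measurements. The 7 windows held 27.3 to 79.5 calls per covered CpG position, against a median of 2.68 over the 831 windows. The other intermediate windows held at most 11.6, while the highest value among all eligible windows was 6037. Reads of near-identical copies would be counted together at such a place; their part in these levels was not tested. Sfi1 was singled out after its values were seen.

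Among intermediate windows, depth was next highest on chromosome 1, around Sp110 and Sp140, which encode related nuclear body proteins induced by interferon. The Sp110 window (chr1:85597818-85599817) was at 55.4% of 368 calls in young WT, 55.3% of 423 in old WT and 55.7% of 149 in Tet2KO. Sp140 (chr1:85599703-85601702) was at 48.9% of 264, 52.2% of 372 and 48.0% of 127. Their levels therefore differed between pools by 0.386 and 4.12 points at most, less than the width of any interval. They held 11.6 and 10.0 calls per position. Between 85 and 85.8 Mb of chromosome 1, 8 of 21 eligible windows were intermediate; that stretch was also chosen after the fact. It includes C130026I21Rik, at 25.2%, 20.0% and 20.1%, and A530032D15Rik, at 48.7%, 52.8% and 48.0%.

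Several well-covered windows with ordinary depth per position had nearly equal levels in the 3 pools. Cyba was at 34.3% of 201 calls in young WT, 33.1% of 375 in old WT and 33.3% of 105 in Tet2KO, a range of 1.26 points. Slc44a4, a transporter of the choline transporter-like family, was at 48.5% of 99, 47.6% of 170 and 50% of 52. Lzts2, a leucine zipper protein that limits beta-catenin in the nucleus, was at 24.1% of 166, 28.5% of 386 and 28.6% of 147. Oscp1, a partner of organic solute carriers, was higher, at 67.8% of 87, 63.2% of 228 and 67.1% of 73. Cdkl1, a cyclin-dependent kinase-like protein, was at 60.2%, 56.6% and 54.4%, and Nrn1l, related to neuritin, at 21.4%, 26.7% and 24.1%. For each of these the interval of every difference between pools included 0. They were picked for their small range by calls. By the deposited mean fraction, which weights each covered CpG position equally, Oscp1 was at 47.7%, 65.0% and 68.4%. Cdkl1 was at 55.6%, 62.3% and 44.0%, so these 2 were not even by that measure. Nrn1l, at 29.8%, 31.5% and 20.2%, and Slc44a4, at 54.6%, 47.6% and 47.5%, were less even than by calls.

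Other deeply covered windows included genes of chromosome transmission, lysosomes and sterol synthesis. Chtf18, part of a clamp loader needed for cohesion of sister chromatids, was at 24.7% of 182 calls, 31.5% of 213 and 27.7% of 141 in young WT, old WT and Tet2KO. Its window overlaps that of Rpusd1, at 22.2%, 32.6% and 22.7%, on the opposite strand. Plekhg4 was at 23.5%, 30.9% and 20.3%, and Tmem191c at 25.1%, 30.6% and 33.0%. Tm7sf2, a sterol reductase, was at 58.6% of 285, 54.8% of 250 and 68.6% of 137. Gaa, the lysosomal alpha-glucosidase, was at 20.3% of 202, 25.3% of 376 and 43.5% of 161. By calls it was higher in Tet2KO than in both WT pools. Its deposited fractions lay nearer each other, at 25.6%, 33.3% and 37.6%. Zglp1, a regulator that starts the oogenic programme in germ cells, was at 39.4% of 155, 21.8% of 357 and 22.9% of 131. It was highest in young WT by calls, while its deposited fractions were close together, at 27.9%, 23.5% and 24.8%.

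**Figure D2:**
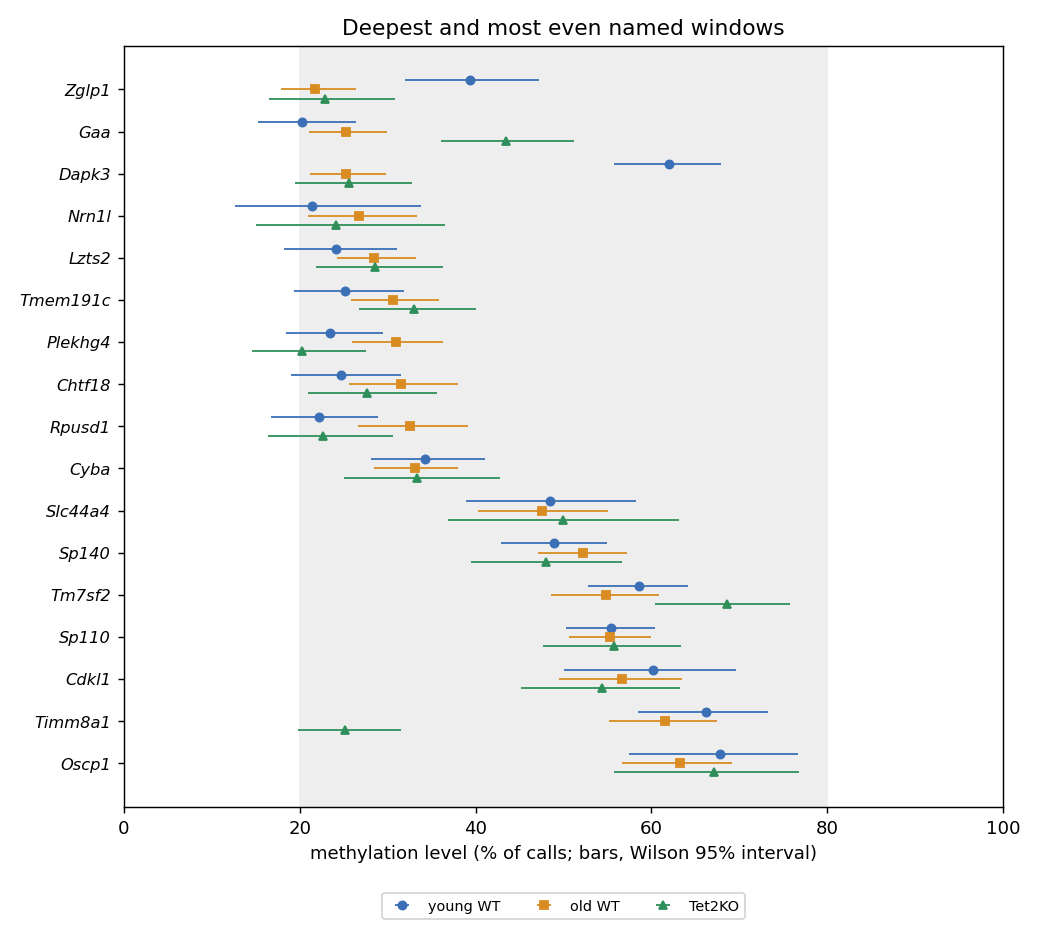
Methylation level (percent of calls) of the named intermediate windows with the most calls or the smallest range between pools, with Wilson 95% intervals; symbols mark the pools and the grey band is 20 to 80%. Sp110, Cyba and Slc44a4 have nearly the same level in all 3 pools, while Dapk3 stands higher in young WT (62.0%) and Timm8a1 lower in Tet2KO (25.2%).

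Over all 831 windows, the range between the highest and the lowest pool had a median of 20.1 points, and 412 windows (49.6%) had a range under 20 points. The same held for 89.4% of eligible windows, most of which are near 0 in every pool. By calls in the shallowest pool, its median was 21.7 points in the 248 windows with 20 to 29 calls, 20.8 in the 299 with 30 to 49, 20.8 in the 212 with 50 to 99 and 13.8 in the 72 with 100 or more. Only the deepest group, which includes the 7 windows of Sfi1, thus stood apart. Across the 831 windows, Pearson's r of the levels was 0.352 between the WT pools, 0.315 between Tet2KO and young WT and 0.396 between Tet2KO and old WT. In the 72 deepest windows it was 0.653, 0.436 and 0.465. These windows share calls where they overlap, and the limits of 20 and 80 narrow the range that r can use.

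**Figure D3:**
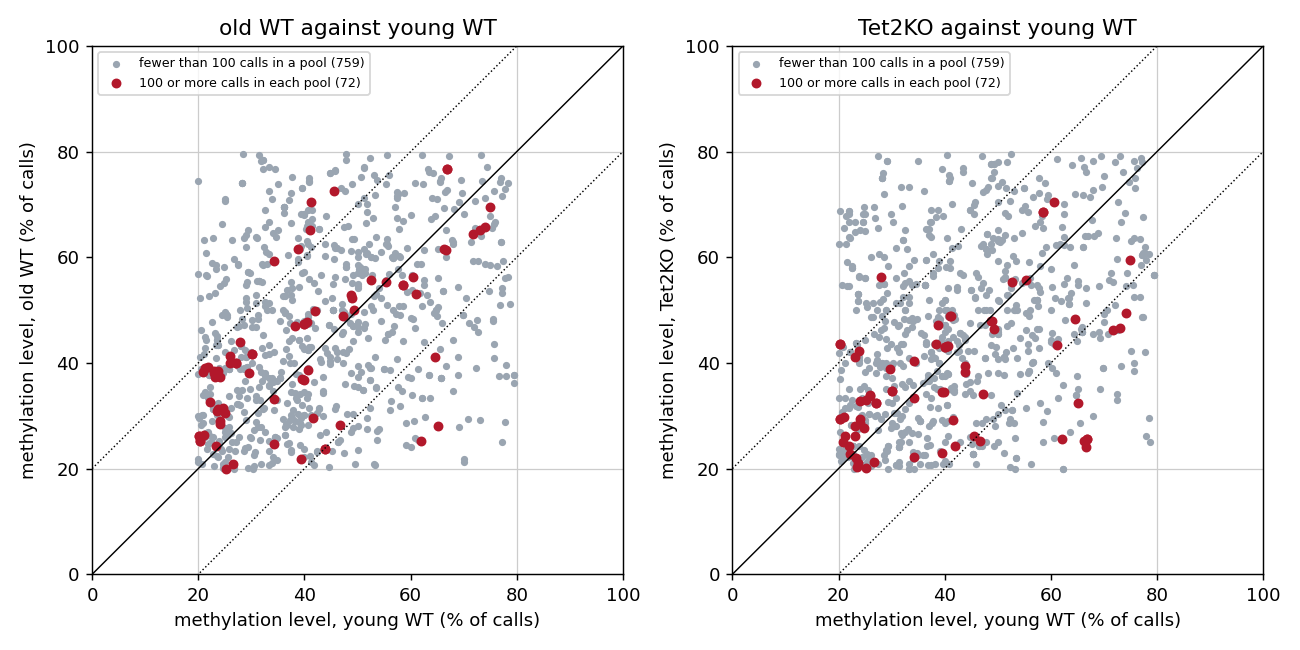
Levels of the 831 intermediate windows in old WT (left) and Tet2KO (right) against young WT, in percent of calls. The solid line marks equal levels, dotted lines a difference of 20 points and grey lines the limits of 20 and 80%; red points, the 72 windows with 100 or more calls in each pool, have r = 0.653 in the left panel and 0.436 in the right, with a median difference of 5.14 points for age and 2.74 for Tet2KO.

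The first comparison, 11-month with young WT, asks how methylation differs with maternal age. Old WT exceeded young WT by at least 20 points at 149 intermediate windows (17.9%) and lay as far under it at 87 (10.5%). Over all eligible windows 3.24% were higher and 3.21% lower. A window under 20% in young WT cannot be 20 points lower, and levels in both pools chose the 831, so the shares are not weighed against each other. Of these, 146 higher and 85 lower windows had a Newcombe interval that left out 0. The median difference was 3.62 points. In the 72 deepest windows 5 were higher and 5 lower, with a median difference of 5.14 points.

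Among genes named by the rule below, the highest differences with age were at an immune regulator, a T cell receptor subunit and membrane proteins. That rule leaves out predicted genes and windows without a named start. Irf7, a transcription factor of the interferon response, was at 32.2% of 90 calls in young WT and 78.5% of 65 in old WT, a difference of 46.2 points (interval 30.9 to 58.3). Atp9a, a phospholipid flippase, was at 31.8% of 22 and 78.2% of 110, and Ptcra, the pre-T cell receptor alpha chain, at 25% of 36 and 71.1% of 97. Cldn15, a claudin of tight junctions, was at 33.3% of 81 and 77.1% of 109. In Tet2KO, whose oocytes were 2 months old, these 4 were at 63.2%, 73.3%, 65.0% and 73.3%, so that young WT was the low pool at each.

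By the same naming rule, the lowest differences with age were at Hspb9, a small heat shock protein of testis, and at Pdzk1, Zfp128 and Pnpla1. Hspb9 (chr11:100712922-100714921) was at 70% of 140 calls in young WT, 21.8% of 248 in old WT and 47.8% of 69 in Tet2KO, which gives -48.2 points with age (interval -56.6 to -38.5). Pdzk1, a scaffold protein of transporters, was at 79.4% of 34, 36.2% of 47 and 56.7% of 30. Zfp128, a zinc finger protein, was at 77.9% of 104, 37.5% of 224 and 26.1% of 46. Pnpla1, an enzyme of skin ceramide synthesis, was at 77.9% of 77, 39.7% of 121 and 59.5% of 37. By calls young WT was the high pool at all 4 windows; by the deposited fraction Pnpla1 was highest in Tet2KO, at 57.0%, 34.1% and 61.6%.

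The second comparison, Tet2KO with WT at 2 months, asks how methylation differs with loss of Tet2, and it uses the same young WT pool. Tet2KO exceeded young WT by at least 20 points at 147 windows (17.7%) and lay as far under it at 86 (10.3%), beside 3.47% and 3.67% of eligible windows. The interval excluded 0 at 135 and 72 of these. The median difference was 2.65 points. In the 72 deepest windows 3 were higher and 10 lower.

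Among genes named by the rule below, Madcam1, an adhesion molecule for lymphocyte homing, had the highest difference. It was at 27.4% of 106 calls in young WT, 58.8% of 102 in old WT and 79.1% of 86 in Tet2KO. The difference from young WT was 51.7 points (interval 38.3 to 62.2). Plpp2, a lipid phosphatase, was at 29.2% of 106, 39.2% of 153 and 78.2% of 78. Tceal3, on the X chromosome, was at 21.9% of 73, 33.9% of 127 and 68.2% of 22, and Acsl6, a ligase of long-chain fatty acids, at 24.8% of 101, 55.1% of 147 and 69.6% of 23. All 4 were lowest in young WT and highest in Tet2KO.

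Of the genes named as lowest in Tet2KO against young WT, 2 had many calls. Timm8a1, a chaperone of mitochondrial protein import encoded on the X chromosome, was at 66.2% of 157 calls in young WT, 61.5% of 244 in old WT and 25.2% of 210 in Tet2KO. The difference from young WT was -41.0 points (interval -49.8 to -31.1) and that from old WT -36.2. Ralgapa2, a subunit of the complex that inactivates Ral proteins, was at 66.8% of 196, 76.8% of 224 and 25.6% of 117, lower in Tet2KO by -41.2 points (interval -50.6 to -30.2). Ccdc42, a protein of the sperm tail, was at 78.7% of 47, 51.1% of 90 and 25% of 24. Zfp128, described above, was lower by -51.8 points. By the deposited mean fraction the gap to young WT was smaller at 2 of these genes. Ralgapa2 was at 68.3%, 74.6% and 45.9% in young WT, old WT and Tet2KO, and Zfp128 at 63.7%, 44.5% and 42.4%. The fractions of Timm8a1 and Ccdc42 lay close to their call levels.

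Tet2KO and old WT differ in both age and genotype. Tet2KO was higher by 20 points or more at 101 windows (12.2%) and lower at 102 (12.3%), beside 2.16% and 2.26% of eligible windows. In the 72 deepest windows 0 were higher and 7 lower, with a median difference of -3.96 points against -0.904 over all 831. In the 284 windows with at least 50 calls in each pool, 27 were higher and 30 lower. By the deposited mean fraction over CpG positions, 87 of the 831 were higher and 107 lower. The even balance by calls was thus absent in the deepest windows and weaker by the fraction. The window shared by Mrm2, a mitochondrial ribosomal RNA methyltransferase, and Nudt1, which clears oxidised nucleotides, was at 24.6% of 69 calls in young WT, 20.9% of 225 in old WT and 68.2% of 44 in Tet2KO. Arhgef10l was at 29.8% of 57, 25.9% of 116 and 68.1% of 94. Gng13, a G protein gamma subunit, was at 50%, 37.3% and 78.0%, and Harbi1, derived from a transposase, at 53.1%, 20.8% and 63.6%. The deposited fractions of Harbi1 were 64.3%, 43.5% and 53.1%, which puts Tet2KO under young WT and closer to old WT. At Mrm2/Nudt1 and Arhgef10l the WT pools were near each other and Tet2KO stood higher.

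Of the genes named by the rule below, those lowest in Tet2KO against old WT were, besides Ralgapa2, Ccdc88b, Spg21 and Myo1c. Spg21, which encodes maspardin, was at 45.6% of 103 calls in young WT, 72.5% of 255 in old WT and 26.1% of 188 in Tet2KO, a difference of -46.5 points (interval -54.2 to -37.6). Ccdc88b was at 45.8% of 48, 76.6% of 64 and 28.6% of 28. Its deposited fractions were 45.2%, 79.5% and 43.8%, so that Tet2KO lay close to young WT by that measure. Myo1c, an unconventional myosin, was at 24.4% of 41, 66.3% of 89 and 22.2% of 36. At Myo1c young WT and Tet2KO were alike by calls and old WT was higher.

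**Figure D4:**
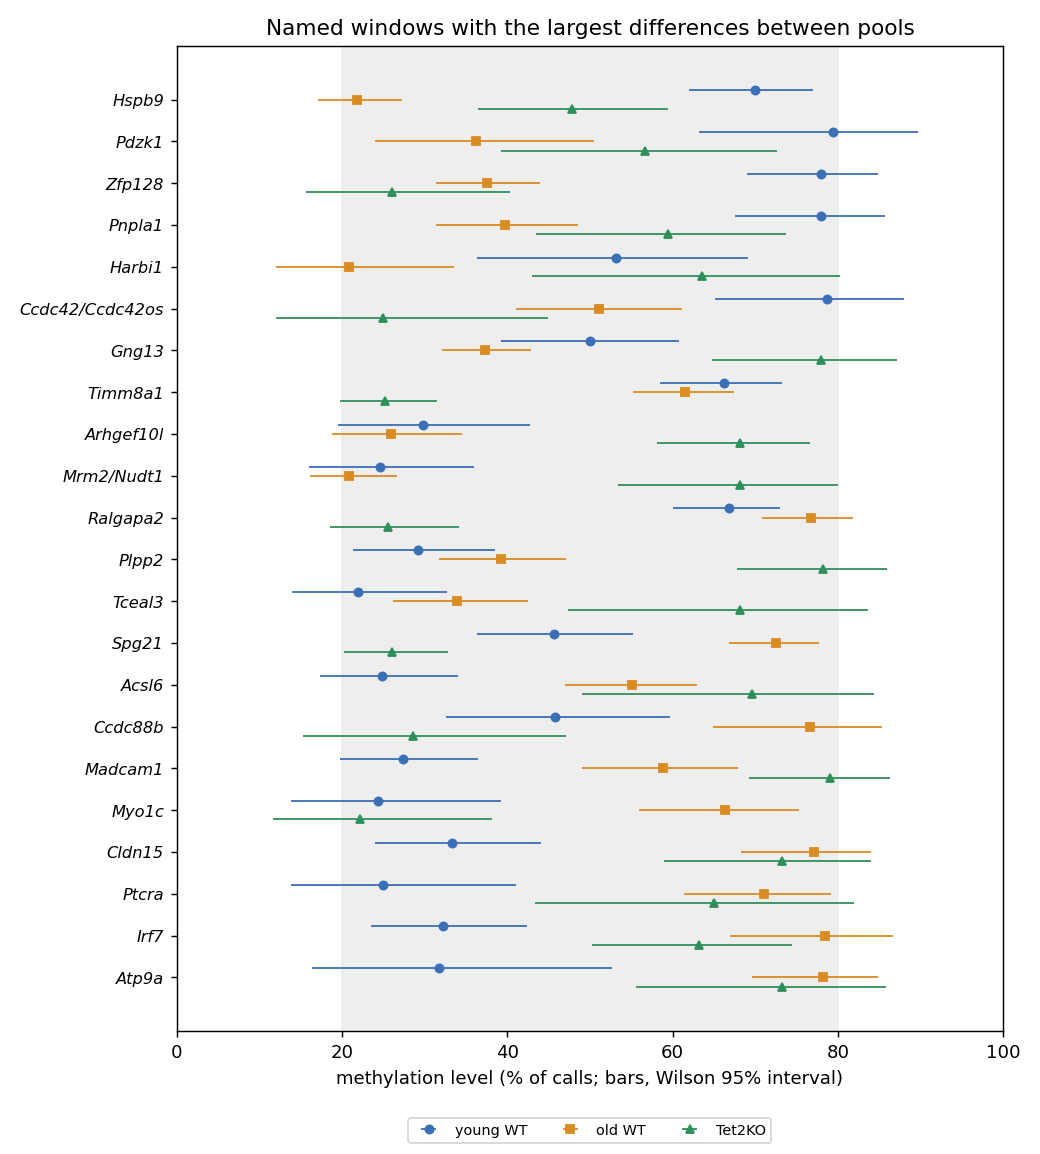
Methylation level (percent of calls) of the named intermediate windows with the largest differences between 2 pools, with Wilson 95% intervals; symbols mark the pools and the grey band is 20 to 80%. From top to bottom the difference of 11-month minus young WT runs from -48.2 points at Hspb9 to 46.4 at Atp9a.

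The deposited mean fraction, which gives every covered CpG position the same weight, moved some of these values. Its median over the 831 windows was 43% in young WT, 47.0% in old WT and 45.2% in Tet2KO. It lay within 10 points of the call level at 680, 716 and 682 windows, and 41 windows had the 2 measures 20 or more points apart in some pool. Dapk3, a death-associated kinase, was at 62.0% of 242 calls in young WT, 25.3% of 396 in old WT and 25.6% of 164 in Tet2KO, while its deposited fractions were 35.2%, 41.4% and 36.0%. At Myo1c the fractions were 45.5%, 56.5% and 43.8%. At Timm8a1 they were 62.5%, 57.8% and 24.5%, close to the call levels. Of the 149 and 87 windows apart with age, 97 and 55 were also 20 points apart the same way by the fraction. For Tet2KO these were 107 of 147 and 56 of 86.

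The share of overlapping windows in the same class fell further with offset around intermediate windows than around low or high ones. Other windows with at least 20 calls per pool that overlapped an intermediate window at an offset of 1 to 199 bp were intermediate in 94.5% of 416 cases. At 500 to 999 bp 59.1% of 115 were, and at 1500 to 1999 bp 4.55% of 88, where 76.1% were low. The median difference in level between a window and such a partner was 0.266 points at the shortest offset and 39.3 at the longest. Around low windows 99.7% and 86.0% of partners at these 2 offsets were low as well, and around high windows 99.0% and 44.6% were high. Overlapping windows share calls, so this is a description, and the class of a window at a limit is easily lost. The classes also differ in size, with 13611 low, 831 intermediate and 2241 high among 19099 eligible windows. The shares were not adjusted for that.

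**Figure D5:**
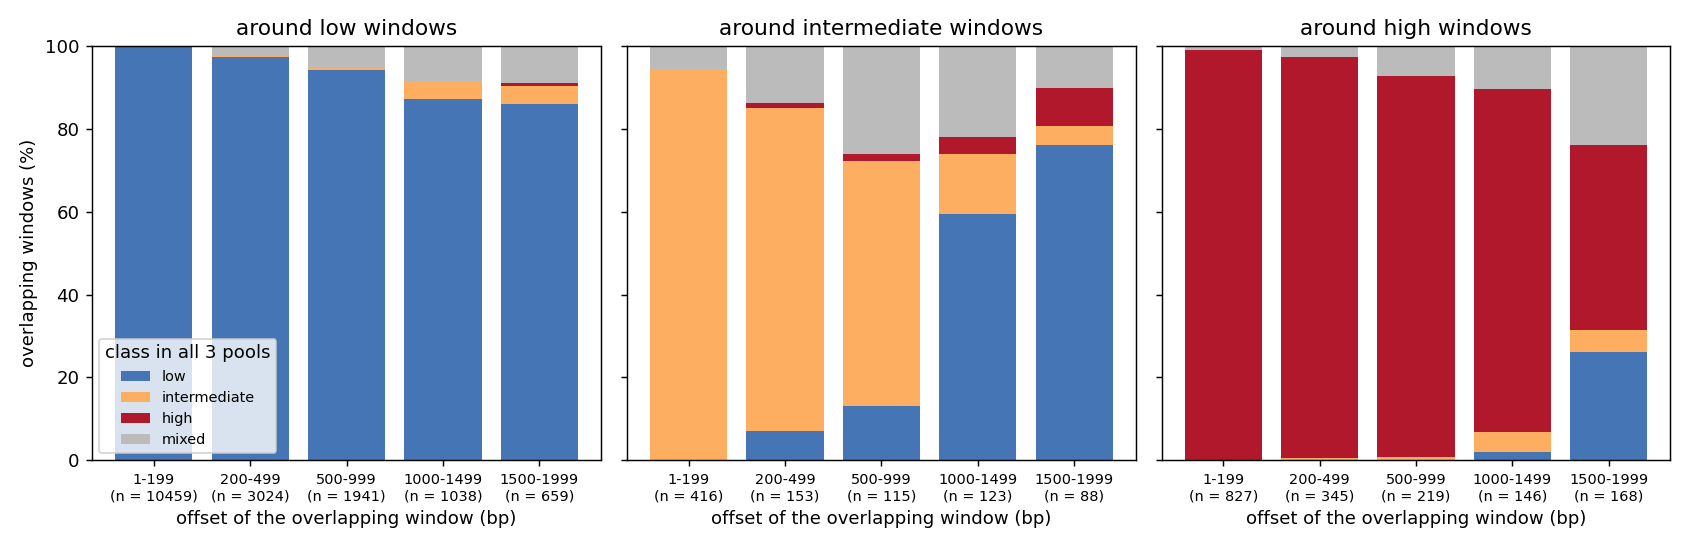
Class in all 3 pools of windows that overlap a low, an intermediate or a high window, in percent, by the offset of their centres in bp; n is the number of overlapping windows. Around intermediate windows the intermediate share goes from 94.5% at 1 to 199 bp to 4.55% at 1500 to 1999 bp, and the low share from 0% to 76.1%.

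Windows centred 2 to 10 kb away share no base with an intermediate window and were not used to choose it. The nearest such window on either side was low in 61.9% of 383 cases, intermediate in 7.05% and high in 12.5%. For all eligible windows these shares were 69.7%, 4.02% and 13.5% of 6935. Where both sides had such a window, a low one lay on one side and a high one on the other in 14 of 57 cases (24.6%), against 14.8% of 1042 for all eligible windows. By direction of transcription, the nearest window downstream of an intermediate window with a named start was high in 21.1% of 76 cases and upstream in 9.18% of 98. Around low windows these shares were 15.7% and 6.08%, so high neighbours were likewise more frequent downstream. Nearby windows are not independent, and no test was made.

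In position and sequence, intermediate windows lay between the other classes. A whole window fell inside a protein-coding gene of RefSeq in 317 of 831 cases (38.1%), against 21.9% of low, 65.3% of high and 29.4% of all eligible windows. A RefSeq start within 200 bp of the centre named 376 of them (45.2%), against 60.9% of low and 34.9% of high windows. In the 250 bases before that start the median number of CpGs was 6, with quartiles of 3 and 11.0. It was 10.0 in low and 5 in high windows. Sequences with 15 or more CpGs made up 13.6% of intermediate, 29.6% of low and 9.59% of high windows. The median ratio of observed to expected CpG was 0.357, 0.570 and 0.304 in the same order, while the GC content was nearly equal, at 54.6%, 55.6% and 54.4%. The X chromosome held 43 of the 831 windows (5.17%), beside 3.86% of eligible windows.

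Of 319 eligible windows named for a gene of 15 lists on oocyte growth, imprinting, meiosis, metabolism and other roles, 3 were intermediate (0.940%). Over all 10628 eligible windows with a symbol 376 were (3.54%), so a count of 0 in a single short list says little. They were Sycp2, of the synaptonemal complex, and 2 overlapping windows of Ucp3, a mitochondrial carrier of muscle. Sycp2 was at 36.4% of 165 calls in young WT, 49.7% of 336 in old WT and 34.1% of 44 in Tet2KO. The Ucp3 windows make 2 of 23 windows of the mitochondrial list (8.70%). Ucp3 was at 39.5% of 43, 73.2% of 71 and 37.5% of 24, highest in old WT. None of 22 eligible windows of maternally imprinted genes was intermediate; 16 were high and 5 low. None was among 19 windows of oocyte genes (17 low), 32 of spindle and cohesin genes (32 low), 24 of DNA repair genes (23 low) or 43 of sperm genes (22 low, 18 mixed). The remaining lists, of antioxidant, methylation machinery, granulosa and cumulus, pluripotency, developmental, housekeeping, insulin and mTOR and other imprinted genes, had none either.

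Gene families, likewise counted over windows with a symbol, gave shares on both sides of 3.54%. Of 316 eligible windows of Zfp zinc finger genes 1 was intermediate, that of Zfp128, and 293 were low. Solute carrier genes had 7 of 190 (3.68%), among them Slc6a14, an amino acid transporter at 39.6%, 57.1% and 20.8% in young WT, old WT and Tet2KO, and Slc25a34 at 32.5%, 68.9% and 50%. Olfactory receptors had 5 of 82 (6.10%). Genes with a symbol that starts with Kcn had 4 of 50. Of these, 3 are overlapping windows of Kcnip2, a channel-interacting protein, at 22.2%, 38.4% and 42.0%. The other is at Kcnip4, of the same group of channel-interacting proteins. Both eligible windows of vomeronasal receptors were intermediate; they overlap at Vmn2r29, at 39.9% of 163 calls, 36.8% of 253 and 34.5% of 197. Slc6a14, Slc25a34, Kcnip2 and Vmn2r29 were picked as examples after their values were seen. No window was intermediate among 68 of Cd antigen, 50 of interleukin and 26 of collagen genes.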

How the data were processed

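Methylation was measured by low-input bisulfite sequencing of mouse MII oocytes. The submitters' processing notes name Trimmomatic, Bismark (version field 12.5) and mm10, with no roles or order. The authors deposited 1 promoter table per group, pooled over its libraries, with methylated and total call counts per window and the mean methylation fraction over covered CpG positions. Every window listed had at least 10 calls and 5 positions. The table of young WT breaks off within a line of the X chromosome; windows past that point were not analysed here. Whether duplicate reads were removed is not given in the sources used here; copies of a molecule and CpGs of a read are not independent calls.

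Levels are methylated over total call counts, and windows were joined on position and transcript. The mitochondrial and Y chromosomes were left out. Pools are counted as apart at 20 points or more; 95% intervals are Wilson (level) and Newcombe (difference). With 1 value per group no test was possible, and samples could not be compared with each other. The computation (Python 3.11.15, numpy 2.4.6, pandas 2.3.3) was tested on simulated data. Windows took the symbol of a RefSeq start (GRCm38.p6) within 200 bp of their centre; windows of chromosome 18 were not named here. Named genes are, with 1 window a symbol and without predicted genes, microRNAs and chemosensory receptors, the 12 windows with the most calls in their shallowest pool, the 8 with the smallest range among those with 50 or more calls in each pool, the 4 highest and 4 lowest differences per comparison, 3 windows on each side of each limit and all in a gene list. Genes outside this rule are said to be chosen later. The windows, lists and rule were chosen with earlier results of these data known. Alternatives changed the minimum calls, the limits, the measure, the position limit, the deepest windows and overlapping windows.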

Additional observations from a re-analysis of the deposited data

How the results depend on the processing

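Of 115 values recomputed under alternatives, 87 moved by less than the limits set for them and 28 moved further. With no limit on CpG positions, without overlapping windows, and without Sfi1 (an alternative chosen after seeing the data), all 14 values of each setting stayed within those limits. With at least 10 calls, 55.8% of neighbours were low and 16.5% high. With at least 50 calls there were 284 intermediate windows; the median level in Tet2KO was 43.4%, Tet2KO was higher than young WT at 13.4% and than old WT at 9.51%, 53.9% had a range under 20 points, and 14.0% of neighbours were intermediate and 5.79% high. With levels from 30 to under 70 there were 307 windows, with medians of 45.3%, 49.7% and 47.2% in young WT, old WT and Tet2KO. That narrower band left 14.0% higher and 7.17% lower with age, 9.45% and 5.54% with Tet2KO, and 7.17% and 8.47% between Tet2KO and old WT. It also left 62.2% with a range under 20 points and 72.4% of neighbours low; a narrower band limits the differences it can hold. By the deposited fraction the Tet2KO median was 43.4%, 8.22% were lower with age, Tet2KO was higher than young WT at 14.2% and than old WT at 8.45%, and 56.5% had a range under 20 points. Without the top 5% of calls per position 4.13% of neighbours were intermediate. With the Wilson interval inside the limits there were 308 windows. Where no construction is named, the cause was not tested. No paired analysis was possible because each table pools the libraries of a group, and leaving out a library could not be run for the same reason. Depth limits single windows: in Tet2KO the median interval spans 27.4 points.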
